A study of Mus musculus with 12 samples.

Results

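Meg3, Rian, Mirg and Snhg11 are 4 long noncoding RNA (lncRNA) genes, chosen by their symbols from the 55335 genes that the files list. They were picked because earlier results of these data had shown their levels to differ between neuron classes and to follow the maturity of excitatory neurons, so their levels across cell classes and their relation to immature neuron genes are described here without a test.

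Meg3, Rian and Mirg lie in the imprinted Dlk1-Dio3 domain, where they are transcribed from the maternal chromosome while the protein-coding genes Dlk1, Rtl1 and Dio3 are transcribed from the paternal one. Their introns and exons carry small RNAs: Rian hosts C/D box small nucleolar RNAs (snoRNAs), and Mirg hosts a large cluster of microRNAs that are abundant in the brain. Snhg11 lies on another chromosome and is itself a snoRNA host gene known from neurons. Sox11, a transcription factor of newly formed neurons, and Unc5d, a netrin receptor of migrating neurons of the upper cortical layers, serve as the markers of immaturity.

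Nuclei came from mice at postnatal day 1 (P1) of the MYT1L S710fsX line, which carries a frameshift in Myt1l, the gene for a transcription factor of neurons. There were 8 wild-type (WT) libraries, from 5 males and 3 females, and 4 heterozygous (Het) libraries, from 3 males and 1 female, with 1 animal in each library and animals drawn from banked tissue of several litters. The labels give the region as forebrain, while the study's methods name the prefrontal cortex once for these samples. Gene counts do not tell the frameshift allele from the intact one, and whether its transcript is lowered was not tested, so the Myt1l level is no check of the labels, while the Het animals had lost 1 functional copy in every cell type that uses the gene. In excitatory nuclei Myt1l was at 1709 ± 130 CPM (UMIs of the gene per 1000000 UMIs of the class in a library) in the 8 WT libraries and at 1960 ± 46.9 in the 4 Het libraries (mean ± SD).

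The 12 libraries held 126684 barcodes with 15439429 to 40784144 unique molecular identifiers (UMIs, tags that mark single captured RNA molecules), and 0 barcodes were shared between libraries. After filtering, 94195 nuclei were kept, 54971 WT and 39224 Het, with a median of 1887 UMIs. Each nucleus was gated by marker genes: it went into the class of which it held UMIs of at least 2 of 8 markers, where that number was higher than for any other class, and 51945 nuclei (55.1%) found a class. The gate gave 22623 excitatory nuclei, of which 7997 were upper-layer, 8091 deep-layer and 6535 without a layer. It also gave 9722 GABAergic and 1968 Cajal-Retzius nuclei, the latter a transient neuron type of the cortical surface that makes reelin. The gate is loose, since 68.9% of the excitatory nuclei had exactly 2 markers and 42.5% led by 1 marker. Levels are given as CPM, and ± is the SD over libraries.

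The marker sums below describe the neuron gates but are no independent check of their names, since the same markers set the gates. Of the Cajal-Retzius nuclei 57.4% had exactly 2 markers and 55.3% led by 1. Excitatory markers summed to 2797 CPM in the excitatory gate and 201 in the GABAergic gate, and GABAergic markers to 1960 CPM in the GABAergic gate and 37.6 in the excitatory gate. Cajal-Retzius markers summed to 9734 CPM in their own gate. The small non-neuronal gates were less clean. Nuclei gated as microglia held 3250 CPM of microglial markers but also 886 CPM of Myt1l and 2085 CPM of the deep-layer marker list, and mural nuclei held 1214 CPM of Myt1l.

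Meg3 (ENSMUSG00000021268.17) is annotated as a long intergenic noncoding RNA on the plus strand of chr12:109541001-109571726 (GRCm38, GENCODE M21). Rian (ENSMUSG00000097451.11) follows after 32 kb on the same strand, at chr12:109603940-109661716, and its span holds 13 snoRNAs. Mirg (ENSMUSG00000097391.8) starts another 68 kb on, at chr12:109729764-109749460, so that the 3 genes span 208 kb. Myt1l lies on the same chromosome, 79.6 Mb away. Snhg11 (ENSMUSG00000044349.15), at chr2:158375638-158386145 on the plus strand, has 2 snoRNAs within its span and is typed as protein coding in that annotation. The annotation also places Gm26906 opposite Meg3 and Gm26945 within Rian on the same strand, so UMIs in those stretches are uncertain.

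The promoters of Meg3, the most upstream of the 3 domain genes, and of Snhg11, the gene with the steepest class pattern below, are shown for comparison. Each sequence runs from 250 bases before to 50 bases after the start site (RefSeq, GRCm38.p6), on the plus strand, at chr12:109540746-109541045 for Meg3 and chr2:158375463-158375762 for Snhg11. Capitals mark TGACGTCA, the full cAMP response element, which reads alike on both strands and is found in 1.79% of 32851 RefSeq promoters of this length. It occurs once in the Meg3 window and not in that of Snhg11. RefSeq gives Meg3 another start site, whose window (chr12:109545148-109545447, not shown) has no such match and 1 CpG.
Meg3: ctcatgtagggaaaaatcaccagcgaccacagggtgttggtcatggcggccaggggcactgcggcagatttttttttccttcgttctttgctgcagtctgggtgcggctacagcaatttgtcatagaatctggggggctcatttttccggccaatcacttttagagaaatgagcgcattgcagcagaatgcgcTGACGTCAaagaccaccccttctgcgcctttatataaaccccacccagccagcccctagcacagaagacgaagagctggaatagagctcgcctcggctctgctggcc
Snhg11: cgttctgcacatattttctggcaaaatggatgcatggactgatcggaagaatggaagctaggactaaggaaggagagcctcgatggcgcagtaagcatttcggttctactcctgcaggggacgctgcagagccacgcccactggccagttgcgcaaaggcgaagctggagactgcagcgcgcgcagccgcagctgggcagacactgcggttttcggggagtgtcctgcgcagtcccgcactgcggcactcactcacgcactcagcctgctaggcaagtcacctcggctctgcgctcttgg

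The Snhg11 window is the richer in CpG, with 21 CpG dinucleotides and 60% GC against 13 CpG and 53.7% GC for Meg3, where the median promoter has 7 CpG. AAGTT, the core bound by the MYT1 family (read on both strands), occurs in neither of these windows and once in the promoter of Rian, and 39.3% of all promoters hold it.

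By RefSeq positions, 18 microRNA hairpins lie within the spans of the members given above, 1 in Meg3, 3 in Rian, 14 in Mirg and 0 in Snhg11, with 34 mature microRNAs. Of these, miR-134-5p (chr12:109734145-109734166) lies upstream of the RefSeq start-site window of Mirg (chr12:109734731-109735030). The following 4 show what these transcripts can be processed to, with the seed (bases 2 to 8) in capitals. Polyadenylated nuclear RNA was counted, so none of these microRNAs was measured.
mmu-miR-770-5p (Meg3): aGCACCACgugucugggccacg
mmu-miR-370-3p (Rian): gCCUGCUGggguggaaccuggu
mmu-miR-134-5p (Mirg): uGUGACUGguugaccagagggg
mmu-miR-410-3p (Mirg): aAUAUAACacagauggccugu

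The seeds differed from one another. Among all 34 mature forms, the one seed that occurred more than once was GGUUGCC, shared by miR-453 and miR-496a-5p of Mirg.

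The mean level of all 4 lncRNAs was highest in Cajal-Retzius nuclei. Mirg, however, was higher in striatal projection neurons in 6 of 11 libraries and in mural nuclei in 3 of 12. Among the other neurons all 4 were higher in GABAergic than in excitatory nuclei, and within the latter higher in the deep than in the upper layers. Meg3, which gives a nuclear RNA that is widely used as a mark of neurons in single-nucleus data, was at 9563 ± 942 CPM in Cajal-Retzius nuclei (n = 12), at 6908 ± 1001 in GABAergic nuclei (n = 12) and at 3004 ± 582 in excitatory nuclei (n = 12). The lowest Cajal-Retzius library, at 8106 CPM, lay above every library of the next class, the striatal projection neurons, at 7267 ± 336 CPM (n = 11). GABAergic libraries reached 8560 CPM, so that class as a whole overlapped in range with Cajal-Retzius nuclei. Within the GABAergic gate, nuclei with markers of the medial ganglionic eminence (MGE, 5942 ± 734 CPM) and of the caudal one (CGE, 5493 ± 800 CPM) overlapped in range, with MGE the higher in 10 of 12 libraries. This order did not hold with each nucleus thinned to 800 UMIs, where Meg3 was at 5204 CPM in MGE and 5227 CPM in CGE nuclei. It was then seen in 86.3% of MGE and 93.2% of CGE nuclei.

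**Figure D1:**
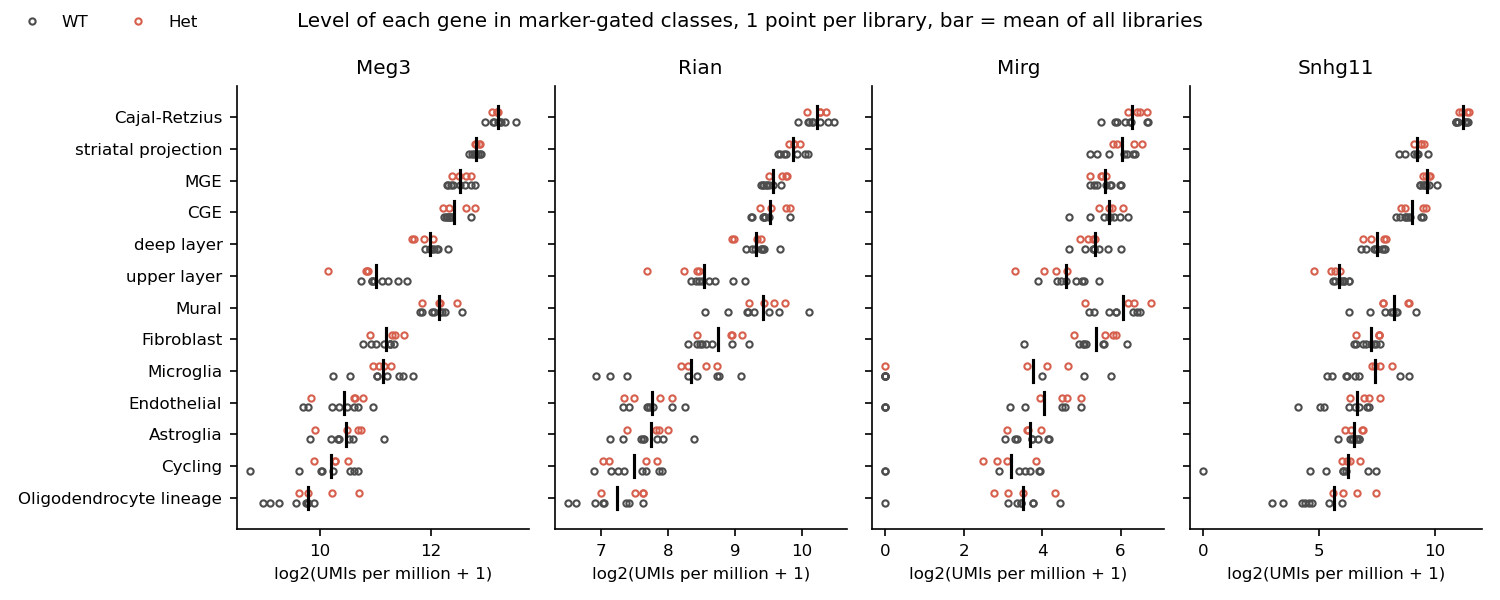
Level of Meg3, Rian, Mirg and Snhg11 (CPM, log axis) in each marker-gated class, 1 point per library, with WT and Het libraries in different colours. Cajal-Retzius nuclei have the highest mean for each gene, with striatal projection and mural nuclei overlapping them for Mirg, and the mean of upper-layer nuclei lies below that of deep-layer nuclei.

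Excitatory neurons split by layer. Meg3 was at 4080 ± 507 CPM in deep-layer nuclei, with libraries from 3247 to 5077, and at 2057 ± 492.8 CPM in upper-layer nuclei, with libraries from 1128 to 3027. These ranges did not overlap, and the deep layer was 2.02-fold higher on average, in 12 of 12 libraries. Deep-layer neurons are born before upper-layer neurons, so at P1 they are the older cells. The part of cell age in the layer difference was not tested.

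Rian, the snoRNA host, followed the same order at its own scale. It was at 1196 ± 126 CPM in Cajal-Retzius, 873 ± 124 in GABAergic, 639 ± 87.5 in deep-layer and 371 ± 93.6 in upper-layer nuclei (n = 12 each). Its Cajal-Retzius range reached into that of the striatal projection neurons (933 CPM, n = 11), though Cajal-Retzius was the higher in 11 of 11 libraries. Mirg, the microRNA host, was sparse, at 77.5 ± 18.8 CPM in Cajal-Retzius, 58.7 in GABAergic, 39.4 in deep-layer and 23.4 in upper-layer nuclei. Neighbouring classes overlapped in range for Rian and Mirg throughout the order.

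Snhg11 had the steepest pattern by mean level. It was at 2364 ± 360 CPM in Cajal-Retzius nuclei, with libraries from 1910 to 2827, at 825 ± 176 in GABAergic nuclei, with libraries from 540 to 1142, and at 121 ± 30.9 in excitatory nuclei (n = 12 each). The ranges of these 3 classes did not overlap. Within libraries, Cajal-Retzius over excitatory nuclei was 20.03-fold for Snhg11 (log2 4.32 ± 0.51), against 3.23-fold for Meg3 (1.69 ± 0.32), 2.44-fold for Rian (1.29 ± 0.35) and 2.54-fold for Mirg (1.34 ± 0.54). GABAergic over excitatory nuclei was 6.92-fold for Snhg11 and between 1.78-fold and 2.32-fold for the others. Each of these differences had the same direction in 12 of 12 libraries. The excitatory level of Snhg11 overlapped in range with endothelial (98.6 ± 53.8 CPM) and astroglial nuclei (91.5 ± 18.4 CPM). Its folds thus rest on a denominator near the level of non-neuronal gates, and their size is uncertain.

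Deep over upper layer was 3.12-fold for Snhg11 (log2 1.64 ± 0.47), 2.02-fold for Meg3 (1.02 ± 0.22), 1.76-fold for Rian (0.81 ± 0.21) and 1.77-fold for Mirg (0.83 ± 0.45). Upper-layer Snhg11, at 57.8 ± 14.4 CPM (27.0 to 77.3), overlapped in range with the oligodendrocyte lineage (50.0 ± 48.6 CPM, 6.94 to 178), so the same limit holds for its fold. In that lineage the WT libraries were mostly lower than the Het libraries. Under the stricter gate, which asks for 3 markers and a lead of 2, Cajal-Retzius over excitatory was a log2 of 5.43 for Snhg11 and 2.08 for Meg3.

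Not all of the higher values were in neurons. Meg3 was at 4542 ± 768 CPM in mural nuclei (pericytes and smooth muscle of vessels), above the excitatory mean, and at 2329 ± 350 in fibroblasts. It was lowest in the oligodendrocyte lineage (873 ± 313 CPM), in cycling nuclei (1172 ± 353), in endothelial nuclei (1384 ± 372) and in astroglia (1412 ± 371), which overlapped in range with their neighbours in this order. Mirg was at 65.5 ± 23.6 CPM in mural nuclei and at 64.9 ± 17.96 in striatal projection neurons (n = 11), both within the range of Cajal-Retzius nuclei. With the stricter gate mural Meg3 was 4811 CPM and mural Mirg 127 ± 87.8 CPM beside 101 ± 36.9 in Cajal-Retzius nuclei, while microglial Meg3 was 1096 CPM in place of 2253 and microglial Snhg11 54.0 CPM in place of 172. The part of stray neuronal RNA in the non-neuronal levels was not tested.

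Depth differs between the gates, with a median of 2505 UMIs in excitatory, 2082.5 in GABAergic and 1185.5 in microglial nuclei. Each nucleus was therefore also thinned to 800 UMIs, which left out 770 shallower nuclei. At this depth Meg3 was seen in 68.2% of excitatory nuclei (77.9% before thinning), 89.9% of GABAergic (94.0%) and 95.7% of Cajal-Retzius nuclei (98.2%). It was also seen in 32.5% of microglial nuclei (36.1%), a non-neuronal gate that is not clean, as given above. By layer it was seen in 84.0% of deep-layer and 57.8% of upper-layer nuclei. Snhg11 was seen in 57.3% of Cajal-Retzius (71.7%), 27.8% of GABAergic (42.0%) and 5.90% of excitatory nuclei (13.4%). The last lay within the spread of its 4.71% ± 4.72 in microglial nuclei (8.92%), but above its 3.44% ± 0.94 in astroglial nuclei. The upper-layer share of Snhg11, 3.16%, lay among those of non-neuronal gates, between 2.74% in cycling and 3.44% in astroglial nuclei, and is not read as expression. The oligodendrocyte lineage had 2.13%. Mirg was seen in 2.10% of excitatory nuclei (7.51%) and 5.96% of Cajal-Retzius nuclei (17.8%).

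Relative to Meg3, the other members of the imprinted domain varied less between neuron classes than Snhg11. For every 100 Meg3 UMIs there were 16.5 ± 0.66 Rian UMIs in excitatory nuclei, 12.7 ± 0.63 in GABAergic nuclei and 12.5 ± 0.84 in Cajal-Retzius nuclei (n = 12 each). The excitatory libraries, from 15.4 to 17.8, all lay above the GABAergic ones, from 11.1 to 13.5. For Mirg the values were 1.02, 0.852 and 0.812, with higher ones in fibroblasts (1.70) and mural nuclei (1.46). For Snhg11 they were 4.01 (3.23 to 5.28) in excitatory, 11.9 (9.80 to 13.9) in GABAergic and 24.7 (20.8 to 29.8) in Cajal-Retzius nuclei, 3 ranges that did not overlap. Such a ratio is read between classes only, since the number of UMIs per molecule also depends on a gene's length and structure.

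**Figure D2:**
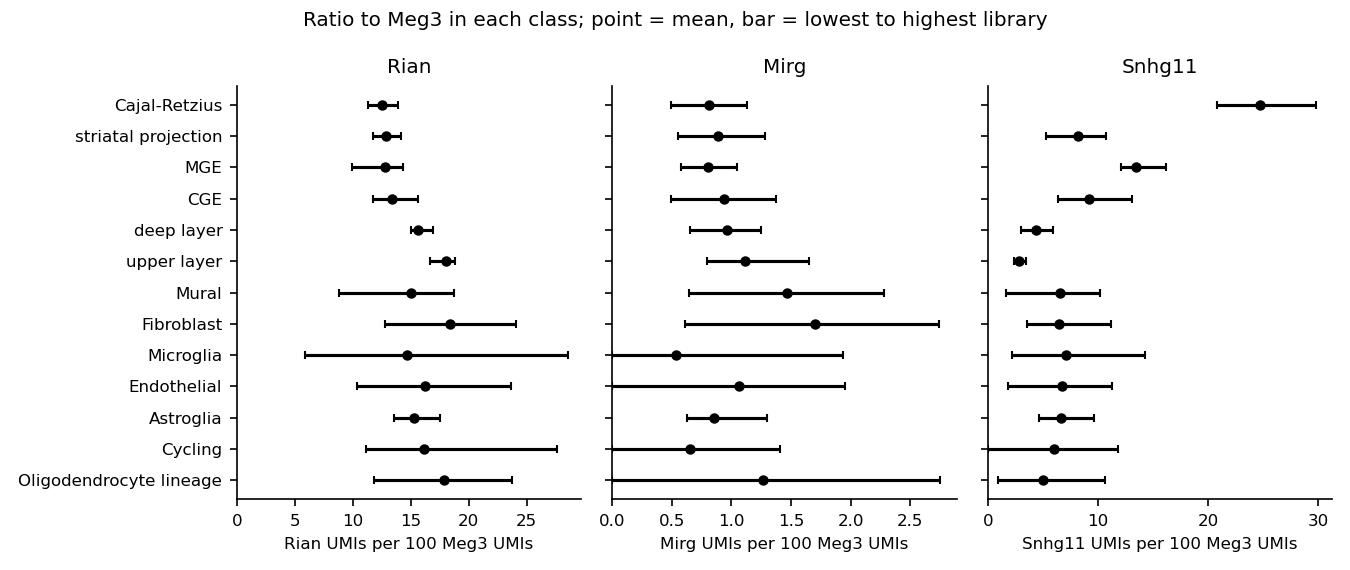
UMIs of Rian, Mirg and Snhg11 per 100 Meg3 UMIs in each class, where the point is the mean over libraries and the bar runs from the lowest to the highest library. Rian libraries lie between 11.1 and 17.8 in the whole GABAergic and excitatory gates, but reach 9.95 in MGE and 18.8 in upper-layer nuclei. The mean of Snhg11 goes from 2.81 in upper-layer to 24.7 in Cajal-Retzius nuclei.

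Across 14 non-nested classes, the correlation of mean log2(CPM + 1) profiles was 0.99 between Meg3 and Rian, 0.92 between Meg3 and Mirg and 0.92 between Meg3 and Snhg11, with 0.78 between Mirg and Snhg11 as the lowest pair. These correlations are descriptions over classes that share libraries. Among 11282 genes with at least 20 CPM in a class, the 2 genes most like Meg3 were Gm37899 (r = 0.96) and B830012L14Rik (r = 0.95), and the same 2 led for Rian (both 0.97) and for Mirg (0.92 and 0.95). Both are transcripts of the same locus and strand, Gm37899 at chr12:109668869-109677585 and B830012L14Rik at chr12:109695586-109702587, that is, between Rian and Mirg. B830012L14Rik was at 322 CPM in Cajal-Retzius, 246 in GABAergic and 137 in excitatory nuclei, and Gm37899 at 164, 132 and 73.3 CPM. Mtus2, A230006K03Rik and Ablim3 came next for Meg3, Amy1, Radil and Mtus2 for Rian, and Hpca, Zfr2 and Eno2 for Mirg.

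Snhg11 had other neighbours. The gene most like it was Reln (r = 0.96), the reelin gene, which is itself one of the markers of the Cajal-Retzius gate, and then Rcan2, Gm10475, Dgkg and Kcnip2 (0.87 to 0.90). Meg3 had little likeness over classes to Sox11 (0.11) or Unc5d (0.17) and more to Myt1l (0.73). The protein-coding genes of the imprinted domain were nearly silent in excitatory nuclei, with 0.4 CPM for Dlk1, 1.3 for Rtl1 and 0 for Dio3, and Begain, upstream of the domain, was at 18.2 CPM.

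Within excitatory nuclei, Meg3 and Rian were lower where Sox11 or Unc5d was detected. With all nuclei thinned to 800 UMIs, Meg3 was at 2919 ± 594 CPM in the 17961 nuclei without a Sox11 UMI, at 2383 ± 612 CPM in the 3770 with 1, and at 1889 ± 496 CPM in the 828 with 2 or more (n = 12 libraries). Rian went through 471, 391 and 308 CPM in the same strata. The log2 ratio of the highest to the lowest stratum was -0.65 ± 0.30 for Meg3 and -0.66 ± 0.37 for Rian, below 0 in 12 of 12 libraries for both. At this depth Sox11 was seen in 20.7% of excitatory, 14.6% of astroglial and 10.1% of microglial nuclei, and Unc5d in 38.8%, 35.1% and 9.94%. The part of stray RNA in the strata was not tested.

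The relation to Unc5d was steeper. Meg3 was at 3260 ± 676 CPM in the 13767 nuclei without an Unc5d UMI, 2448 ± 432 in the 5295 with 1 to 2 and 1350 ± 310 in the 3497 with 3 or more, a log2 ratio of -1.28 ± 0.23 that ranged from -1.71 to -0.87. Rian was at 519, 421 and 229 CPM, a log2 ratio of -1.18 ± 0.22. Both ratios were below 0 in 12 of 12 libraries.

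Mirg and Snhg11 were too sparse for a clear answer. Mirg was at 31.5, 20.03 and 17.7 CPM over the Unc5d strata, with 45 UMIs in the highest, and its log2 ratio of -0.98 ± 0.75 was below 0 in 10 of 12 libraries. Snhg11 was at 100, 111 and 78.0 CPM over the Unc5d strata, with 206 UMIs in the highest and a ratio below 0 in 7 of 12 libraries. Over the Sox11 strata Snhg11 was at 110, 67.3 and 42.2 CPM and Mirg at 26.9, 30.5 and 19.1 CPM, with 28 and 11 UMIs in the highest stratum, and the ratio could not be formed in libraries with 0 UMIs.

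**Figure D3:**
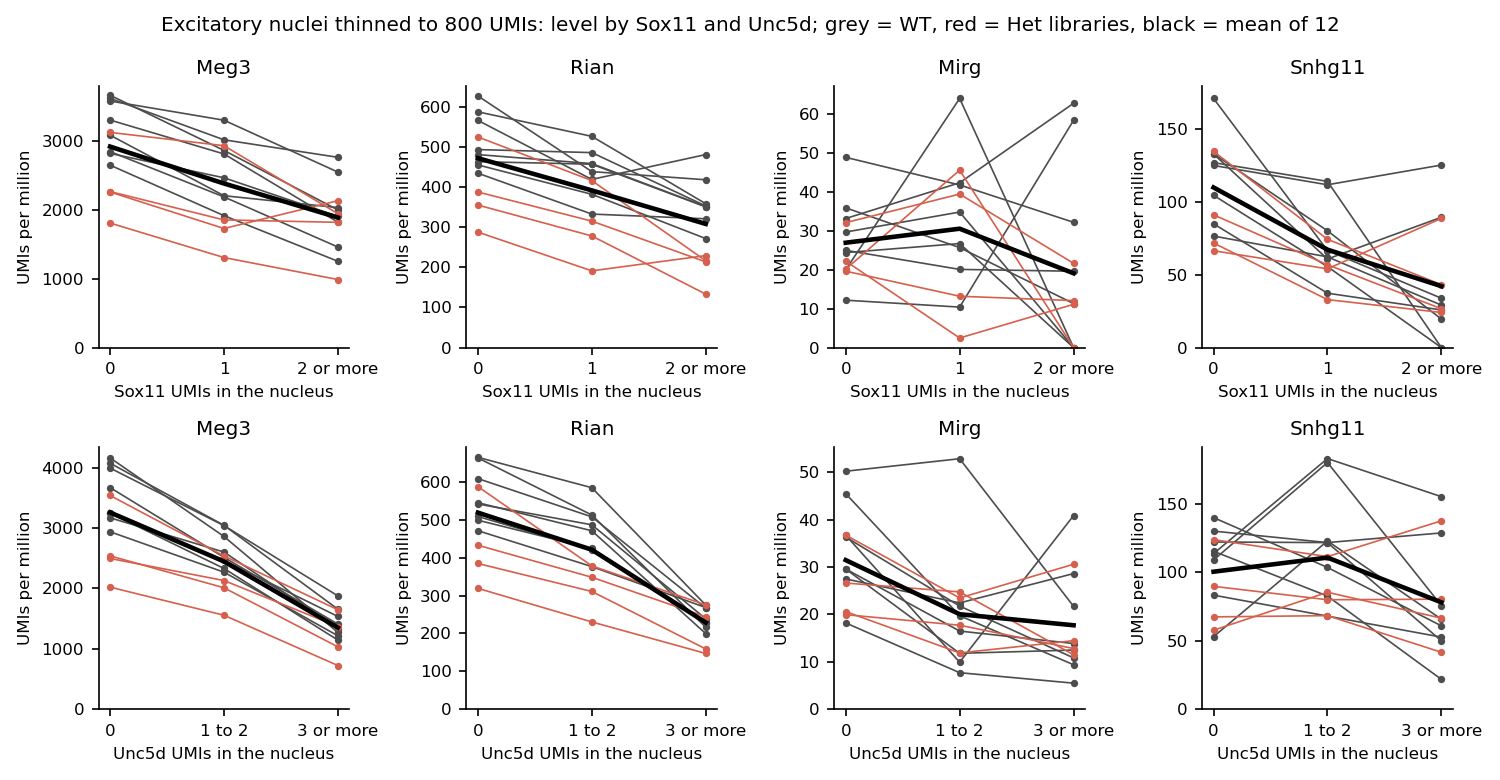
Level of each member (CPM) in excitatory nuclei thinned to 800 UMIs, by the number of Sox11 or Unc5d UMIs in the nucleus, with 1 line per library. Meg3 falls from a mean of 3260 to 1350 CPM over the Unc5d strata, in every library.

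Layer moved with this pattern. Unc5d was at 1325 ± 140 CPM in upper-layer and 663 ± 169 in deep-layer nuclei (n = 12), and the nuclei of either layer alone gave a log2 ratio of -0.95 for Meg3 over the Unc5d strata, below 0 in 12 of 12 libraries in each layer. For Rian the ratios were -0.96 in upper-layer and -1.06 in deep-layer nuclei. Over the Sox11 strata the Meg3 ratio was -0.66 in deep-layer nuclei (12 of 12 libraries below 0) and -0.24 ± 0.40 in upper-layer nuclei (8 of 12). The Rian ratio was -0.59 ± 0.74 (10 of 12) and -0.37 ± 0.84 (7 of 12). The Sox11 ratios were thus less uniform within layers, on 243 deep-layer and 288 upper-layer nuclei in the highest stratum. The smallest library held 7 of these nuclei in the deep layer and 12 in the upper layer. The part of such low counts in the spread was not tested.

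Thinning changed the size of the ratios and, for Snhg11, a direction. Without it the Meg3 ratios were -0.26 for Sox11 and -0.48 for Unc5d. That of Snhg11 for Unc5d was -0.49 with thinning and turned to 0.26 without it, below 0 in 2 of 12 libraries.

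At the level of single nuclei the correlations were weak. The median Spearman rho over libraries between Meg3 and Unc5d was -0.27 (-0.37 to -0.20) and between Meg3 and Sox11 -0.085. Among members it was 0.33 for Meg3 and Rian, 0.20 for Meg3 and Snhg11 and 0.078 for Meg3 and Mirg. Without thinning these were 0.56, 0.33 and 0.18, and Meg3 was at -0.31 with Unc5d and -0.11 with Sox11. The size of these values thus depended on thinning. These values share depth and library and carry no test.

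Set beside all 5189 genes that could be compared in this way, Meg3 had the 4th lowest mean Pearson correlation with Unc5d (-0.30) and the 8th lowest with Sox11 (-0.10). Genes below it for both markers included the synaptic and adhesion genes Ptprd, Dlg2 and Adgrb3. Rian stood 59th for Unc5d and 84th for Sox11, Snhg11 818th and 119th, and Mirg 584th and 1980th. The size of such a correlation also depends on how abundant a gene is. Per thinned excitatory nucleus there were 2.19 UMIs of Meg3, 0.355 of Rian, 0.077 of Snhg11 and 0.021 of Mirg. The places are therefore not read as the strength of a relation to maturity. Of 8 maturing neuron genes, 7 had a mean correlation below 0 with each marker. The lowest of them was the synaptic vesicle gene Syt1, 25th for Unc5d and 19th for Sox11, and the exception was the splicing factor gene Rbfox1, with 0.16 and 0.029. Unc5d and Sox11 correlated with each other at 0.15.

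To ask whether the loss of 1 Myt1l copy altered these RNAs, counts were summed per library over the excitatory nuclei. Meg3 in the 8 WT libraries had a lowest value of 2682, a median of 3206 and a highest of 3809 CPM. The Het males had 2413, 1894 and 2372 CPM and the Het female 3269 CPM. The 3 Het males thus lay below every WT library and the Het female within the WT range. The share of all genes with this arrangement was not computed. Rian ranged from 442 over a median of 525 to 655 CPM in WT, and was at 429, 313 and 385 CPM in the Het males and at 537 CPM in the Het female, the same arrangement.

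Mirg and Snhg11 overlapped more. WT Mirg ran from 18.7 to 50.3 CPM with a median of 34.6, and Het Mirg was 25.3, 20.8 and 20.01 CPM in males and 32.3 in the female. Snhg11 ran from 86.5 to 164 CPM in WT with a median of 135, against 105, 75.3 and 77.7 CPM in the Het males and 155 CPM in the Het female. Here 2 of 4 Het libraries lay below all WT libraries. None of the 4 genes had all Het libraries below all WT libraries, an arrangement that 0.326% of 14091 genes showed.

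**Figure D4:**
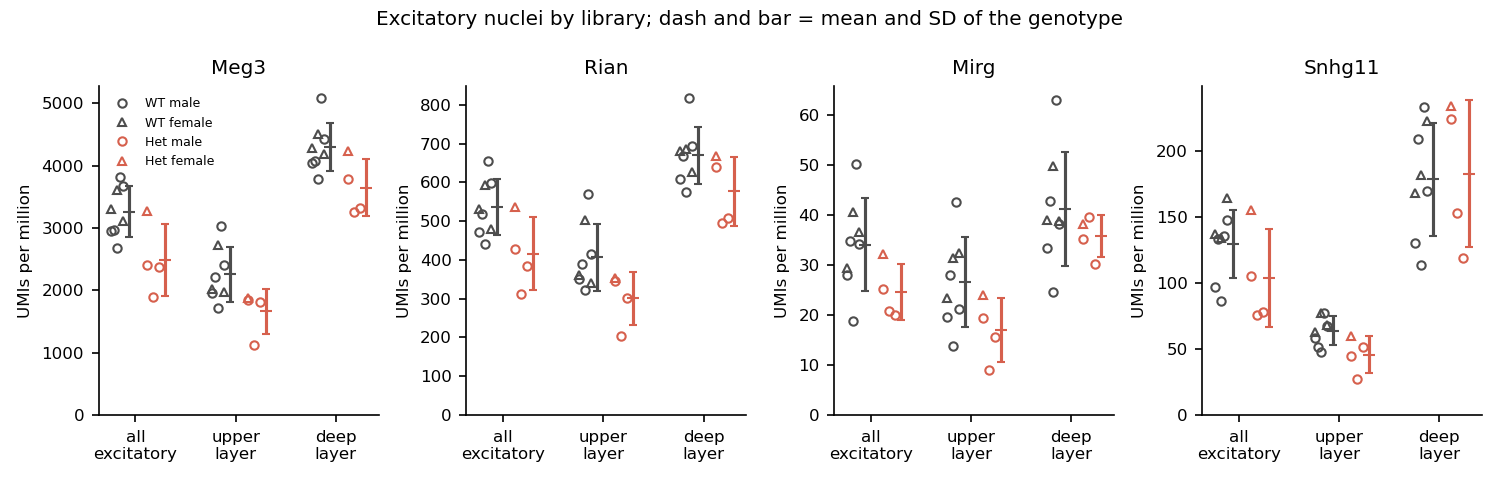
Level of each member (CPM) in excitatory nuclei of each library, by genotype, with males and females marked differently and the mean and SD beside them. The 3 Het males lie below all WT libraries for Meg3 and Rian, while the Het female lies inside the WT range for each gene. The share of all genes with the 3 Het males below all WT libraries was not computed.

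None of the 4 passed the test in excitatory nuclei over all libraries, with genes of low counts filtered out. The log2 difference, Het against WT, by edgeR's quasi-likelihood test with Benjamini-Hochberg adjustment was -0.40 (SE 0.12, adjusted p = 0.250, unadjusted p = 0.00471) for Meg3 and -0.38 (SE 0.13, adjusted p = 0.278, unadjusted p = 0.00865) for Rian. Mirg had -0.49 (SE 0.19, adjusted p = 0.333) and Snhg11 -0.33 (SE 0.18, adjusted p = 0.499). The fit called 0 of 14091 genes (0%), where a call needs an adjusted p under 0.05 and a log2 difference of at least 0.2, and 1656 genes had an unadjusted p under 0.05. Of those, 883 were lower in Het (6.27% of genes), among them Meg3, Rian and Mirg, and ordered by p the 4 genes took places 265, 438, 779 and 2435. DESeq2 called 43 genes (0.305%) and none of the 4, with adjusted p = 0.0935 for Meg3, 0.136 for Rian, 0.401 for Snhg11 and none given for Mirg.

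The call depended on the libraries kept and on the filter. Without the Het female, Meg3 (log2 -0.56, edgeR adjusted p = 0.0111) and Rian (-0.52, adjusted p = 0.0269) passed as lower in Het, in a fit that called 350 of 14312 genes (2.45%), while Mirg (-0.63, adjusted p = 0.116) and Snhg11 (-0.58, adjusted p = 0.0594) did not. Without the filter on low counts Meg3 passed over all libraries as well (-0.38, adjusted p = 0.0332; 186 of 36740 genes, 0.506%). With male libraries only, Meg3 passed (-0.54, adjusted p = 0.0432; 176 genes, 1.24%) and Rian did not (adjusted p = 0.0613). Without Het male 2, the library with the lowest Meg3, the Meg3 difference was -0.29 (adjusted p = 0.628) and that of Snhg11 -0.20. With 1 Het female, sex and the single animal cannot be told apart. The Het female also had the largest share of deep-layer nuclei among layer-gated nuclei in Het, 62.4% against 31.0%, 38.0% and 45.4% in Het males 1 to 3. The part of this share in these fits was not tested.

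The 2 layers were also fitted apart. Upper-layer Meg3 had a WT minimum of 1714, a median of 2113 and a maximum of 3027 CPM, against 1849, 1128, 1812 and 1874 CPM in Het males 1 to 3 and the Het female, so that 1 Het library lay below all WT libraries. Upper-layer Snhg11 ranged from 47.8 to 77.3 CPM in WT and was 44.6, 27.0, 51.6 and 59.8 CPM in the same Het libraries. The log2 differences were -0.43 for Meg3, -0.44 for Rian, -0.70 for Mirg and -0.52 for Snhg11 (edgeR adjusted p from 0.312 to 0.365), with 0 of 4 called where 5 of 10581 genes were (0.0473%). The upper-layer Snhg11 values lie at the level of non-neuronal gates, so that difference is not read as one of expression.

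In the deep layer Meg3 ranged from 3789 to 5077 CPM in WT and was 3778, 3247, 3320 and 4230 CPM in Het. The 3 Het males lay below all WT libraries, and the share of all genes with this arrangement was not computed. Deep-layer Snhg11 ranged from 113 to 233 CPM in WT and from 119 to 234 in Het. The log2 differences were -0.25 for Meg3, -0.22 for Rian, -0.21 for Mirg and 0.04 for Snhg11 (edgeR adjusted p from 0.295 to 0.971), with 0 of 4 called where 4 of 10715 genes were (0.0373%). Mirg was at -0.12 without WT male 4, and Snhg11 turned to -0.11 without the Het female.

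The genotype difference of Snhg11 was 0.53 lower on the log2 scale in the upper than in the deep layer (interaction term, log2 -0.53, edgeR adjusted p = 0.303, 0 of 4 members called where 0.194% of 11355 genes were). Without Het male 3 it passed (log2 -0.81, adjusted p = 0.0414, in a fit that called 4 genes, 0.035%), and without Het male 1 it was -0.38 (adjusted p = 0.746). Since its upper-layer side lies at the level of non-neuronal gates, neither value is read as a difference of expression between layers. The part of stray RNA in the upper-layer level was not tested. The interaction was -0.44 for Mirg (adjusted p = 0.586), -0.21 for Rian (adjusted p = 0.612) and -0.18 for Meg3 (adjusted p = 0.723). Without Het male 2 these were -0.17, -0.11 and -0.061.

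Since the members are higher in the deep layer, the layer make-up of the excitatory nuclei was compared too. Deep-layer nuclei made up 54.4% ± 11.2 of layer-gated nuclei in WT (n = 8, 39.9 to 73.8) and 44.2% ± 13.5 in Het libraries (n = 4, 31.0 to 62.4; two-sided p = 0.198 by exact permutation). When the mean of the log2 CPM of both layers was taken with equal weight in each library, the difference was -0.34 for Meg3 (exact permutation test, two-sided, p = 0.0202) beside -0.41 (p = 0.0202, same exact test) for all excitatory nuclei together, and -0.33 (exact p = 0.0485) beside -0.38 for Rian. Mirg (-0.41, exact p = 0.145) and Snhg11 (-0.25, exact p = 0.218) had larger p-values. The smallest p that 8 against 4 libraries allow is 0.00404, and these p-values stand for single genes chosen with results known.

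Over the 12 libraries the deep-layer share and Meg3 in excitatory nuclei had a Pearson r of 0.62 (permutation p = 0.0295). Spearman rho was 0.59 (permutation p = 0.0479), and r was 0.47 without the 2 libraries farthest from the median share. A gene higher in deep-layer nuclei rises with this share when layers are pooled, and the 12 libraries mix both genotypes. These relations and their p-values are therefore read as a description only. For Rian, Mirg and Snhg11 r was 0.49, 0.20 and 0.58 (permutation p = 0.102, 0.524 and 0.05004), in 4 relations with unadjusted p-values. Their Spearman rho was 0.55, 0.26 and 0.64 (permutation p = 0.0670, 0.415 and 0.0285). Over the 8 WT libraries r of Meg3 was 0.31 (exact permutation p = 0.457) and 0.73 without the 2 farthest, so within WT it had the same sign but depended on the libraries kept. For Rian, Mirg and Snhg11 the WT value was 0.11, -0.21 and 0.34, and the 4 Het libraries are too few for a value. The median depth was 2598 UMIs per excitatory nucleus in WT and 2354 in Het libraries (exact permutation p = 0.0808), and Malat1, an abundant nuclear RNA, was at 6997 CPM in WT against 7681 in Het libraries (p = 0.0848, exact permutation). The part of depth in the lncRNA differences was not tested.

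Within each Sox11 and Unc5d stratum the mean of Meg3 was lower in Het libraries. The log2 ratio of Het to WT means of Meg3 was -0.43 in nuclei without a Sox11 UMI, -0.41 with 1 and -0.20 with 2 or more. Over the Unc5d strata it was -0.43, -0.36 and -0.26 for Meg3 and -0.39, -0.58 and -0.22 for Rian. As for the shares of nuclei in the strata, 14.5% of WT and 16.8% of Het excitatory nuclei had 3 or more Unc5d UMIs (exact permutation p = 0.109), which under the stricter gate was 14.4% and 17.9% (exact permutation p = 0.0323). By Sox11, 3.99% and 3.59% had 2 or more Sox11 UMIs (exact permutation p = 0.958). In deep-layer nuclei the Unc5d share was 6.69% for WT against 10.8% for Het (exact p = 0.0364, same test), while in upper-layer nuclei it was 17.1% for WT and 15.9% for Het (exact p = 0.453). These p-values of shares are unadjusted, and shares of further strata and settings were compared as well.

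The steepness of the relation was compared between genotypes for the 6 slopes that every library could give, by exact permutation over libraries (two-sided, unadjusted). The Meg3 log2 ratio over the Unc5d strata was -1.33 in WT and -1.19 in Het (exact p = 0.376), and over the Sox11 strata -0.73 and -0.49 (exact p = 0.210). Rian over the Sox11 strata was at -0.51 in WT and -0.97 in Het (exact p = 0.0566), a difference of -0.46. It was -0.68 without Het male 2 (exact p = 0.0121), but turned to 0.078 without thinning (exact p = 0.303) and was -0.038 under the stricter gate (exact p = 0.945), where 3 Het libraries gave a value. Its highest Sox11 stratum held 363 ± 62.6 CPM in WT (271 to 480) and 198 ± 43.7 in Het (133 to 229), ranges that did not overlap but that rest on 192 UMIs in all. This stratum was picked after its values were seen, and the share of all genes with such an arrangement was not computed. In the same stratum Meg3, Mirg and Snhg11 overlapped in range, and the mean of Snhg11 was higher in Het (log2 0.18). Rian over the Unc5d strata (exact p = 0.291), Mirg (exact p = 0.307) and Snhg11 (exact p = 0.323) gave no smaller p.

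The proportions between members were compared between genotypes in excitatory nuclei. Per 100 Meg3 UMIs there were 16.4 Rian UMIs in WT against 16.7 in Het (p = 0.448, exact permutation), 1.03 and 0.994 Mirg UMIs (exact p = 0.719) and 3.96 and 4.09 Snhg11 UMIs (exact p = 0.747), in 3 comparisons with unadjusted p-values.

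In the GABAergic gate taken whole the 4 genes did not show the excitatory direction. Meg3 had a WT minimum of 5511, a median of 6612 and a maximum of 8204 CPM, and 6117, 8560 and 8063 CPM in the Het males and 7175 in the Het female, so that the groups overlapped and 1 Het library was the highest. Its log2 difference was 0.18 (edgeR adjusted p = 0.749), that of Rian 0.20 (0.688), Mirg 0.18 (0.746) and Snhg11 0.21 (0.788), and without Het male 2 the differences of Meg3 and Snhg11 were 0.098 and 0.12, with 0 of 4 members called over all libraries where 0% of 11361 genes were and 857 genes had an unadjusted p under 0.05.

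**Figure D5:**
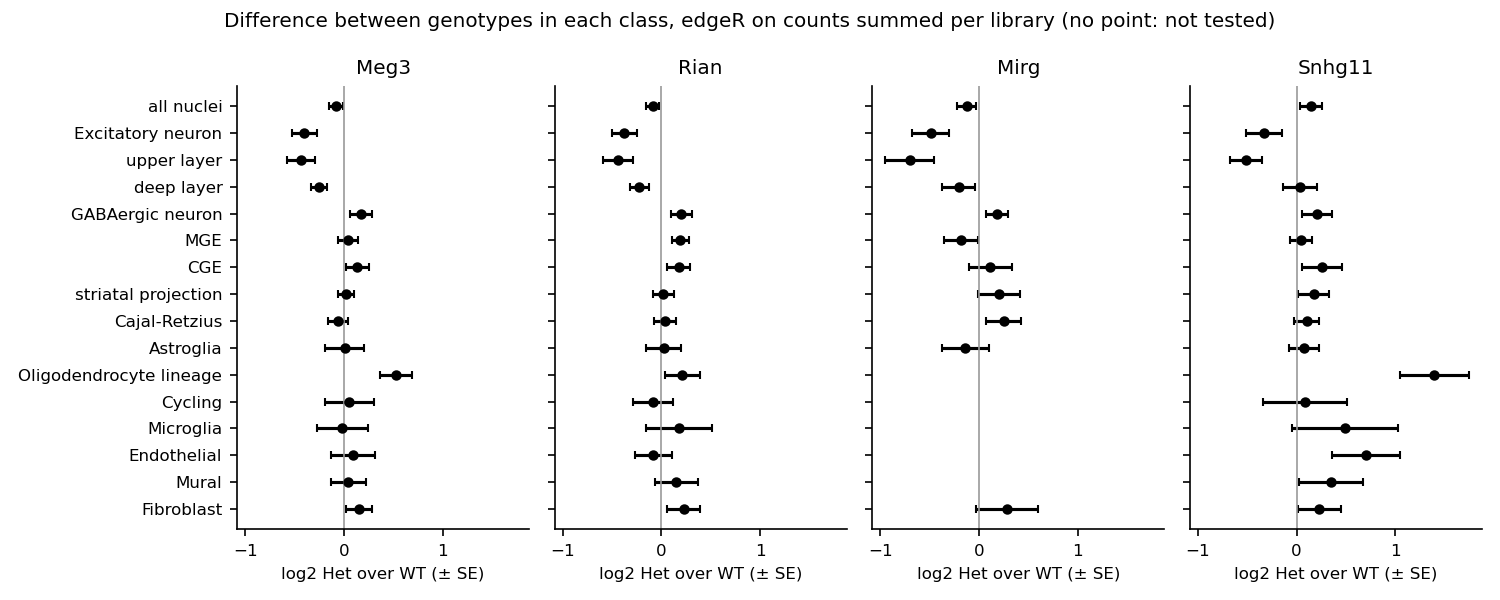
Log2 difference, Het against WT, of each member in each class from edgeR, where the bar is the SE. The excitatory values lie between -0.49 and -0.33 and the GABAergic values between 0.18 and 0.21, and no value passed in these fits, which used all libraries and a filter on low counts.

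The contrast between excitatory and GABAergic nuclei, each gate taken whole, was tested with an interaction term that was chosen after the data had been seen. It was -0.59 for Meg3 (edgeR adjusted p = 0.244), -0.59 for Rian (adjusted p = 0.244), -0.62 for Mirg (adjusted p = 0.218) and -0.58 for Snhg11 (adjusted p = 0.411), and 0 of 13940 genes were called (0%), with 1307 at an unadjusted p under 0.05. Without the Het female, Meg3 (-0.75, adjusted p = 0.0358), Rian (-0.75, adjusted p = 0.0387) and Mirg (-0.77, adjusted p = 0.0339) passed, in a fit that called 154 genes (1.08%), and Snhg11 did not (-0.82, adjusted p = 0.0843). Without Het male 2 the interaction was -0.40 for Meg3, -0.42 for Rian, -0.51 for Mirg and -0.38 for Snhg11. The part of the make-up of either gate in this contrast was not tested.

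Cajal-Retzius nuclei, where the mean levels were highest, showed log2 differences of -0.06 for Meg3, 0.04 for Rian, 0.25 for Mirg and 0.11 for Snhg11 (0% of 6406 genes called), and all kept nuclei together -0.08, -0.09, -0.12 and 0.15 (0% of 20034). In the oligodendrocyte lineage Snhg11 had a WT minimum of 6.94, a median of 21.5 and a maximum of 63.3 CPM, against 48.2, 65.2, 99.6 and 178 CPM in the Het libraries, on 25, 25, 34 and 28 UMIs, so that 3 Het libraries lay above all WT libraries. Its log2 difference was 1.39 (SE 0.35, edgeR adjusted p = 0.508, 0% of 4264 genes called), and it passed without Het male 1 (1.68, adjusted p = 0.0418, with 5 genes or 0.117% called). Meg3 of this gate ranged from 501 to 945 CPM in WT and was 779, 876, 1190 and 1671 CPM in Het, a log2 difference of 0.53 (edgeR adjusted p = 1.00, unadjusted p = 0.00333) that fell to 0.29 without the Het female, and that of Rian was 0.21 (unadjusted p = 0.244 by edgeR). In the same gate Myt1l was at 297 CPM in WT and 384 in Het, and Unc5d at 243 and 385 CPM, while the 8 excitatory markers summed to between 62.6 and 350 CPM over libraries, and the part of stray neuronal RNA was not tested. In the other 9 classes, where 0% of 46460 gene tests were called and 4.98% had an unadjusted p under 0.05, 32 tests of members gave 0 calls by edgeR, 1 unadjusted p under 0.05 and log2 differences from -0.18 to 0.70. Over all 16 classes and groupings the 59 member tests gave 0 calls when every library was used, by edgeR with its filter on low counts or by DESeq2, where 0.00726% and 0.113% of 123912 gene tests were called. By edgeR 12 of the 59 had an unadjusted p under 0.05, as did 7.68% of all gene tests, and the classes share nuclei.

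The lists of related genes held no gene that passed in excitatory nuclei, where 11.8% of all genes had an unadjusted p under 0.05. The counts at that level below are to be read against this share. Of the 13 genes in and around the Dlk1-Dio3 domain 9 were tested, all of them flanking genes since Dlk1, Rtl1 and Dio3 were too low, with a median log2 difference of -0.03 beside -0.00 for all genes, and 2 had an unadjusted p under 0.05, Ppp2r5c (-0.12) and Dync1h1 (-0.13). The 2 transcripts between Rian and Mirg were at -0.31 (Gm37899, adjusted p = 0.438) and -0.30 (B830012L14Rik, adjusted p = 0.366) in excitatory nuclei and at 0.15 and 0.17 in GABAergic nuclei. Of 33 other imprinted genes 29 were tested, with a median of 0.03, and 2 were higher (Igf2, 1.12, and Plagl1, 0.42) and 2 lower (Grb10, -0.34, and Trappc9, -0.19) at an unadjusted p under 0.05.

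The lists of other host genes and lncRNAs had medians above 0. Of 17 other snoRNA host genes 13 entries were tested, with a median of 0.09 and Snhg1 (0.32) at an unadjusted p under 0.05, and Gas5, a well known host, at 0.07. The 16 other lncRNAs of brain nuclei had a median of 0.13, with Pantr1 (0.39), Sox2ot (0.54), Dleu2 (0.28) and Mir124a-1hg (0.22), the host of a neuronal microRNA, at an unadjusted p under 0.05, and Malat1 at 0.13. The 8 immature neuron genes had a median of 0.15, with Nrp1 (0.52) and Draxin (0.32) at an unadjusted p under 0.05, Sox11 at -0.00 and Unc5d at 0.18 (adjusted p = 0.558). The 9 maturing neuron genes had a median of 0.02 and none at an unadjusted p under 0.05.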

How the data were processed

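Single-nucleus RNA was barcoded by split pooling, with all 12 P1 libraries on the same plates. The authors counted UMIs per gene and nucleus and deposited unnormalized expected counts, in which 6.74% to 7.05% of entries are fractional because a UMI was divided between genes. Mapping and counting used the ScaleRna workflow, per the study's methods, and the submitters' processing notes name mm10 and Seurat 4.3.0. Positions came from GENCODE M21 (54587 of 55335 identifiers matched), sequences from RefSeq (GRCm38.p6).

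Following the study's filter, a nucleus passed (98111 did) with 300 to 3000 genes, 800 to 6000 UMIs, a mitochondrial share up to 1% and log(genes)/log(UMIs) no lower than 0.9. The 5% of barcodes with the highest simulated-doublet score in each library were removed, 3916 of those that passed. Classes came from marker gates, and intermediate progenitors (42 nuclei) were not used. Classes were used in libraries with at least 10 nuclei.

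Counts were summed per library and class and, since the design had assumed whole counts, rounded. edgeR 4.0.16 (R 4.3.3; TMM, filterByExpr, genotype only, quasi-likelihood) was the main test and DESeq2 1.42.0 an alternative. Tests were adjusted over all genes of a class. On simulated excitatory data of 13870 genes edgeR recovered 48.0% of genes changed by a log2 of 0.5 and 87.6% at 1. Single values were compared by exact permutation over 495 splits. Python 3.11.15, numpy 2.4.6, scipy 1.17.1 and scikit-learn 1.9.0 were used.

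Named genes are the 4 members, Sox11, Unc5d, Myt1l, the 5 genes with the most similar class profile for each member, called genes of the lists and the locus neighbours. Other list genes are named where an unadjusted p was under 0.05 or as well known examples, and Ptprd, Dlg2 and Adgrb3 for their correlations, after their values were seen. Members and lists were chosen with earlier results of these data known. Each library is 1 animal, and animals share litters that the labels do not give.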

Additional observations from a re-analysis of the deposited data

Results flagged for a closer look

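Of 147 groups of 4 to 10 libraries whose member levels or slopes were examined for a library that stands apart from the rest of its group, 9 had one, and chance alone gives about 1 in 20. In the upper layer, Het male 2 was the lowest of its group for Meg3, at 1128 CPM where the group median was 1831. In the other 4 cases for Meg3, WT male 3 was lowest over all kept nuclei (3570 CPM, median 4114), Het female 1 lowest in Cajal-Retzius nuclei (8838 CPM, median 9447), WT male 5 highest in astroglia (2290 CPM, median 1286) and WT male 2 highest in CGE nuclei (6799 CPM, median 5156). WT male 2 was also highest for Rian in CGE nuclei (909 CPM, median 691) and for Snhg11 in MGE nuclei (1103 CPM, median 763). Het male 1 was lowest for Snhg11 in fibroblasts (97.0 CPM, median 192). The log2 ratio of Snhg11 over the Sox11 strata was 0.42 in Het male 3, where the group median was -1.61. No library stood apart for Meg3, Rian, Mirg or Snhg11 in excitatory nuclei as a whole or in GABAergic nuclei.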

How the results depend on the processing

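Over alternative settings the excitatory differences kept their direction, and leaving out 1 library at a time gave -0.56 to -0.29 for Meg3, -0.52 to -0.26 for Rian, -0.63 to -0.39 for Mirg and -0.58 to -0.20 for Snhg11, and 0 to 350 genes called. DESeq2 called 43 genes, the stricter gate 2, no filter on low counts 186, male libraries 176 and all barcodes 1, and Meg3 passed with no filter (-0.38) and in males (-0.54). The label's sex and number as a replicate block gave -0.29 (adjusted p = 0.395) for Meg3, -0.27 for Rian, -0.18 for Mirg and -0.16 for Snhg11, and 2 calls by edgeR. The deviations of same-numbered samples correlated at 0.116, 0.122 and 0.408 in 3 pairs and at 0.00819 in the pair numbered male 1. Since not every pair was over 0.1, the samples were taken to share only a number.

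Levels moved with the gate: Cajal-Retzius over excitatory had a log2 of 2.08 (stricter gate) and 1.36 (all barcodes) for Meg3, 1.64 (stricter) for Rian, and 5.43 and 3.29 for Snhg11. GABAergic over excitatory Snhg11 was 1.94 with all barcodes, and deep over upper layer 1.30 for Meg3 and 1.11 for Rian under the stricter gate. Without thinning the ratios over strata were -0.26 (Meg3) and -0.27 (Rian) for Sox11, and -0.48, -0.44 and 0.26 (Snhg11) for Unc5d. Upper-layer nuclei gave Meg3 -0.24 for Sox11 and -0.95 for Unc5d, and deep-layer nuclei -0.95. The cause of these shifts was not tested.

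Some differences between genotypes turned sign. Without thinning, slope differences became 0.078 in place of -0.46 (Rian, Sox11), -0.010 in place of 0.15 (Rian, Unc5d) and -0.17 in place of 0.48 (Mirg, Unc5d), and -0.0070 for Rian by Unc5d in upper-layer nuclei. Under the stricter gate deep-layer Snhg11 was at -0.16 and Rian of the oligodendrocyte lineage at -0.13. With 1 library left out, Meg3 over all nuclei ran from -0.15 to 0.0021, deep-layer Snhg11 from -0.11 to 0.20, calls of members outside excitatory nuclei from 0 to 1, and the slope difference of Rian by Sox11 from -0.68 to -0.32. The upper minus deep interaction of Snhg11 ran from -0.81 to -0.38, and the excitatory minus GABAergic one from -0.75 to -0.40 for Meg3, -0.75 to -0.42 for Rian, -0.77 to -0.51 for Mirg and -0.82 to -0.38 for Snhg11. UMIs per 100 Meg3 UMIs differed by -0.060 to 0.47 for Rian, -0.087 to 0.011 for Mirg and -0.090 to 0.40 for Snhg11. Depth limits Mirg and Snhg11, whose highest Sox11 stratum held 11 and 28 UMIs.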

Other observations

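The protein-coding and noncoding genes whose class profile was most like that of a member were also read in the genotype comparison, as a description. In excitatory nuclei their log2 differences, Het against WT, ranged from -0.52 for A230006K03Rik (edgeR adjusted p = 0.340) to 0.07 for Amy1 (adjusted p = 0.815), and none of them passed. Ablim3, a gene for an actin-binding protein, was at -0.45 (adjusted p = 0.236), Kcnip2, which codes for a subunit of potassium channels, at -0.50 (adjusted p = 0.306) and Eno2, the neuronal enolase gene, at -0.34 (adjusted p = 0.259). Reln was at 0.03 and Rcan2 at -0.08. In GABAergic nuclei A230006K03Rik was at 0.38 (adjusted p = 0.657), Kcnip2 at -0.38 (adjusted p = 0.657), Eno2 at 0.05 and Ablim3 at -0.02. Whether these differences depart from one another between the 2 neuron types was not tested.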
